A study of Mus musculus with 35 samples.

Results

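Podocytes are the epithelial cells that wrap the capillaries of the glomerulus, and the transcripts examined here are 8 genes that mark them: Nphs1, Magi2, Podxl, Ptpro, Synpo, Wt1, Tcf21 and Cdkn1c. They were chosen by name, with earlier results of these data known, and all 8 were found among the 31053 genes counted. RNA of whole kidneys of C57BL/6 mice, both sexes, taken at postnatal day 2 was sequenced from the 3′ end (QuantSeq) in 35 libraries of 3 crosses. The Flcn cross set 5 Flcn KO kidneys, homozygous for floxed Flcn (Flcn flox/flox) and Ksp-cre+, against 5 controls. The cross with Tfeb set 4 kidneys called Flcn/Tfeb DKO, in which Flcn and Tfeb were both flox/flox with Ksp-cre+, against 3 controls. The cross with Tfe3 set 10 kidneys called Flcn/Tfe3 DKO, which were Flcn flox/flox and Ksp-cre+ and also Tfe3-/-, against 8 controls. The labels call the control mice of every cross only controls. Where the study gives a genotype for controls, in its account of the kidney stainings, it is Flcn flox/flox, and for the sequenced controls of each cross the genotype is not given in the sources used here. The first 2 crosses form set A, and the Flcn/Tfe3 cross was deposited as 2 tables, set B (controls 1 to 3, DKO 1 to 6) and set C (controls 4 to 8, DKO 7 to 10). Ksp-cre is driven by the cadherin 16 promoter and recombines in collecting ducts, distal tubules and thick ascending limbs, and podocytes are not among the cells in which it is described, whereas the Tfe3 null allele of the Flcn/Tfe3 DKO is carried by every cell.

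Podocytes send out interlocking foot processes, and the gap between neighbouring processes is bridged by the slit diaphragm, the last barrier that keeps protein out of the urine. Nephrin, the product of Nphs1, spans that gap and is held by scaffolds such as Magi2, while the charged sialomucin podocalyxin (Podxl) coats the apical surface and synaptopodin (Synpo) binds the actin of the foot process. Wt1 and Tcf21 are transcription factors needed to make podocytes, and Cdkn1c is a cell cycle inhibitor found in podocytes that have stopped dividing. At this age new nephrons are still forming in the mouse kidney, and Wt1, Tcf21 and Cdkn1c are also made in other kidney cells, Tcf21 in the stroma. Folliculin, encoded by Flcn, restrains the transcription factors TFEB and TFE3, and the study asked whether removing either of them undoes what loss of Flcn does to the kidney, which leads to the question of whether genes of a cell type outside the Cre domain differ between the genotypes.

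The libraries held 1652649 to 4239356 counts on genes (median 2992169), of which the 8 genes took 0.0954 to 0.162%. At these depths 3 counts, the limit that a count of 0 allows, corresponded to a level of 0.708 to 1.82 CPM, counts scaled to a common library total, and every member was counted in every library, the lowest value being 14 counts of Nphs1. The targeted genes gave no check of the labels. Flcn in the libraries labelled Flcn KO differed from controls by 0.088 on the log2 scale (SE 0.20, edgeR quasi-likelihood test, Benjamini-Hochberg adjusted p = 0.93). Tfeb in the libraries labelled Flcn/Tfeb DKO differed by -0.73 (SE 0.38, edgeR adjusted p = 0.8). It had 9.34, 7 and 19.5 CPM in controls 1, 2 and 3 and 6.48 to 7.94 CPM in the DKO. Control 3, the highest, is named below for its share of reads on no gene. Tfe3 in the libraries labelled Flcn/Tfe3 DKO differed by -0.086 (SE 0.14, edgeR adjusted p = 0.94). Reads from the 3′ end of a transcript can fall outside the deleted part. For Flcn and Tfeb, whole kidneys also hold cells outside those in which Ksp-cre recombines. These values therefore check nothing. Some libraries stood apart in the share of reads that fell on no gene, which is given for sets A and C. Controls 4 and 5 of the Flcn cross had 11 and 9.06%, against 16.5 to 18% in the other 3 controls, and control 3 of the Flcn/Tfeb cross had 9.07%, against 17.8 to 19.9% in the other 6 libraries of that cross. In set C the 4 DKO libraries had 7.92 to 10.5% and the 5 controls 8.78 to 18.4%.

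None of the 8 podocyte genes differed between knockout and control kidneys in any of the 3 crosses at an adjusted p under 0.05 (edgeR with Benjamini-Hochberg adjustment over all genes tested). The test called 62 of 11932 genes in the Flcn cross (0.52%), 0 of 12469 in the Flcn/Tfeb cross (0%) and 48 of 12456 in the Flcn/Tfe3 cross (0.385%). In the Flcn/Tfeb cross 632 genes (5.07%) had an unadjusted p under 0.05, none of them a member, and DESeq2 also called 0 genes. Over the 3 crosses 1 member had an unadjusted p under 0.05 in edgeR, Podxl in the Flcn KO, and DESeq2 called no member. Of all genes tested, 9.07% in the Flcn cross and 7.15% in the Flcn/Tfe3 cross had such a p. The largest difference among the members was -0.40 on the log2 scale in the Flcn KO, -0.49 in the Flcn/Tfeb DKO and 0.17 in the Flcn/Tfe3 DKO. The members' median was -0.049, -0.0056 and -0.0073 in the same order, beside -0.0074, -0.017 and 0.009 over all genes tested. The difference of -0.49 was that of Podxl, and it was 0.064 without control 3 of the Flcn/Tfeb cross. The 95% intervals lay within a 2-fold change either way for 8 of 8 members in the Flcn cross, 6 of 8 in the Flcn/Tfeb cross and 8 of 8 in the Flcn/Tfe3 cross. One member did differ within 1 of the 2 tables of the Flcn/Tfe3 cross. Tcf21 was lower in the DKO of set C, where the test called 569 of 12169 genes (4.68%), and had the opposite sign in set B. The call in set C was lost with the share of reads on no gene as a covariate, while the difference kept its sign. In set C that share was smaller in every DKO library than in all controls but control 6. In whole kidneys, fewer podocytes and less RNA in each podocyte cannot be told apart. Which cells made the RNA of a member, Podxl among them, was not measured. Nothing in the labels says that the libraries of a group came from separate animals, and the p-values then measure only the spread between these libraries.

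**Figure D1:**
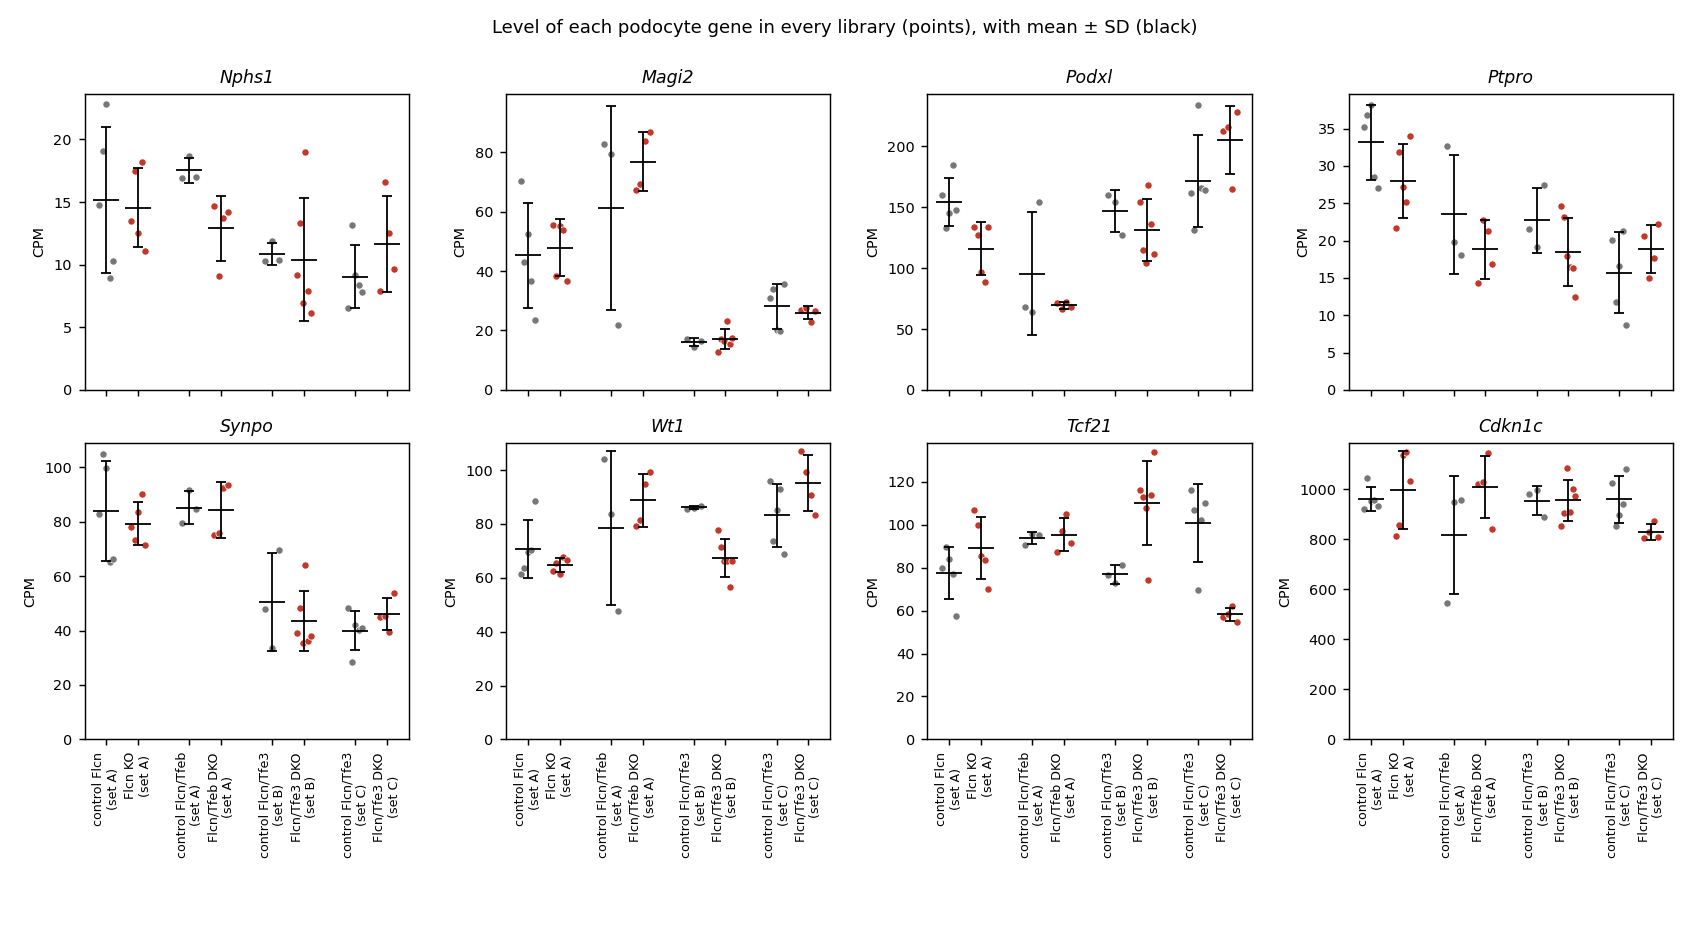
Level of each of the 8 podocyte genes (CPM on TMM-scaled library totals, linear axis from 0) in every library, grouped by cross, genotype and set, with grey points for controls, red points for KO or DKO, and black bars for mean ± SD. Tcf21 in the DKO of set C (54.9 to 62.3) lies below all 5 controls of that set. The group means of Magi2 and Synpo are lower in sets B and C than in set A in controls and DKO alike, while single libraries of the sets overlap.

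The sequences upstream of the members bear on the question because TFEB and TFE3 bind the letters CACGTG, Tcf21 with its partners binds sites of the form CANNTG, and Wt1 can bind GCGTGGG. Windows from 250 bases before to 50 bases after the start of transcription were taken from RefSeq (GRCm38.p6) and matched 4 of the 8 members by symbol, Nphs1, Magi2 (with 2 starts), Ptpro and Tcf21. The window of Nphs1 (chr7:30459808-30460107) lies inside the gene as GENCODE M21 places it (chr7:30458315-30487223). The GENCODE start of Nphs1 was therefore not searched. All motifs were searched on both strands, and CACGTG is itself a case of CANNTG. No window of these 4 genes held CACGTG, which occurs in 7.15% of 32851 mouse promoter windows of the same length. CANNTG occurs in 72.3% of those windows, and was found 3 times for Ptpro, 1 time at each start of Magi2 and not for Nphs1 or Tcf21. GCGTGGG, present in 5.04% of windows, was found 1 time, in the window of the Magi2 start at chr5:19226796-19227095, with its letters on the minus strand, opposite to the gene. The windows of Tcf21, the member that differed in set C, of Nphs1, the gene of the slit diaphragm itself, and of Ptpro, the member with the most CANNTG, are shown 5′ to 3′ on the strand of the gene, with CANNTG in capitals.
Tcf21, chr10:22820094-22820393, minus strand: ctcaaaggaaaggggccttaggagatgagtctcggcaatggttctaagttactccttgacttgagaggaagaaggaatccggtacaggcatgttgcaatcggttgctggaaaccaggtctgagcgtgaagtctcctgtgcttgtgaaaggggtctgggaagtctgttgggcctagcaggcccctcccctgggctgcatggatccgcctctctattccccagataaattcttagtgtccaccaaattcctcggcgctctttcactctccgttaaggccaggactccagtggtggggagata
Nphs1, chr7:30459808-30460107, plus strand: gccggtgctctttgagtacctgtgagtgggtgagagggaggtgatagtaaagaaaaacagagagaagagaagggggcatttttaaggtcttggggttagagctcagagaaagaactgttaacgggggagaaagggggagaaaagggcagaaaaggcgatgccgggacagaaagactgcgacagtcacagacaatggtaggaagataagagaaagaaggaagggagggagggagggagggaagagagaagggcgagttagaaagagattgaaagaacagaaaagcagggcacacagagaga
Ptpro, chr6:137252049-137252348, plus strand: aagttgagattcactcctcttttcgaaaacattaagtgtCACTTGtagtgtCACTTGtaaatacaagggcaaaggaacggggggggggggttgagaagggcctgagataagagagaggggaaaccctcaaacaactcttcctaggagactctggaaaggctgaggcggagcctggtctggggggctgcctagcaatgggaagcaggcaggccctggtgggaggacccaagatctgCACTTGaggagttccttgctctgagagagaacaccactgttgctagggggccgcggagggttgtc
Absence of a motif says only that these letters are not in the window shown.

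Nphs1 (ENSMUSG00000006649, mm10 chr7:30458315-30487223, plus strand) was the member with the lowest counts, 14 to 89 per library. In the Flcn cross the controls had 14.8, 19.1, 22.8, 8.91 and 10.3 CPM and the Flcn KO 13.5, 17.5, 12.5, 18.2 and 11.1 CPM. The groups overlapped over nearly their whole range, and the log2 difference was -0.021 (SE 0.26, edgeR adjusted p = 0.99). The Flcn/Tfeb controls had 16.9, 18.7 and 17 CPM and the DKO 14.7, 9.07, 13.7 and 14.2 CPM. All 4 DKO libraries were below all 3 controls, a separation shown downwards by 2.74% of all genes tested in this cross, and the difference of -0.43 (SE 0.25, 95% interval -0.98 to 0.12) did not pass the test (edgeR adjusted p = 0.8). In the Flcn/Tfe3 cross the controls had 6.56 to 13.2 CPM (median 9.72) and the DKO 6.1 to 19 CPM (median 9.4), with a difference of 0.17 (SE 0.23, edgeR adjusted p = 0.91). The antisense gene Nphs1os, which overlaps Nphs1, had 0 counts in all libraries.

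Magi2 (ENSMUSG00000040003, mm10 chr5:19227036-20704792, plus strand), the scaffold under the slit diaphragm, had the widest span of the members between groups, its highest group mean being 4.8 times its lowest. The mean was 76.9 ± 9.9 CPM (SD, n = 4) in the Flcn/Tfeb DKO and 16 ± 1.29 CPM (SD, n = 3) in the controls of set B. Its level differed between the sets, which are separate tables, and also within set A. Controls and DKO lay between 12.8 and 23.2 CPM in set B and between 19.8 and 35.7 CPM in set C, against 21.8 to 86.9 CPM in set A. The lowest libraries of set A, control 3 of the Flcn/Tfeb cross (21.8 CPM) and control 5 of the Flcn cross (23.5 CPM), were those with 9.07 and 9.06% of reads on no gene. In the Flcn/Tfeb cross the controls had 82.9, 79.4 and 21.8 CPM and the DKO 67.5, 69.3, 83.7 and 86.9 CPM. Controls 1 and 2 lay among the DKO libraries and only control 3 stood far below them, so that the difference of 0.34 (SE 0.36, 95% interval -0.46 to 1.15, edgeR adjusted p = 0.83) turned to -0.079 without that library. In the Flcn cross the controls had 70.5, 43.2, 52.6, 36.6 and 23.5 CPM and the KO 55.4, 38.2, 55.2, 53.9 and 36.7 CPM. The difference was 0.093 (SE 0.23, edgeR adjusted p = 0.93), and it was -0.23 without controls 4 and 5, the libraries with the smallest shares of reads on no gene. In the Flcn/Tfe3 cross it was 0.0042 (SE 0.14, 95% interval -0.29 to 0.30). An annotated non-coding RNA, Gm29254, lies over the 3′ end of Magi2 on the same strand and is not among the counted genes, so reads of the 2 cannot be separated.

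Podxl (ENSMUSG00000025608, mm10 chr6:31519488-31563981, minus strand), which encodes podocalyxin, was the member nearest to the threshold in the Flcn cross. The controls had 160, 133, 145, 185 and 148 CPM and the Flcn KO 134, 127, 97.2, 88.4 and 134 CPM. KO libraries 1 and 5 were just above the lowest control and the other 3 below all controls. The difference of -0.40 (SE 0.13, 95% interval -0.69 to -0.12) had an unadjusted p of 0.0076 and an edgeR adjusted p of 0.32. In this cross 3.81% of all genes tested lay lower at an unadjusted p under 0.05. The Flcn/Tfeb controls had 68.3, 64.2 and 154 CPM and the DKO 71.1, 66.7, 72.3 and 67.7 CPM. Control 3 was above every other library of the cross, and the remaining 6 lay within 64.2 to 72.3 CPM. The difference was -0.49 (SE 0.28, edgeR adjusted p = 0.8) with control 3 and 0.064 without it. In the Flcn/Tfe3 cross the controls had 127 to 234 CPM and the DKO 104 to 228 CPM, with a difference of 0.067 (SE 0.12, edgeR adjusted p = 0.95). In set C alone it was 0.24 (SE 0.16, edgeR adjusted p = 0.38), and 0.37 (SE 0.13, edgeR adjusted p = 0.042) without control 6, which had the highest level of that set, in a fit that called 2404 of 12109 genes (19.9%).

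Ptpro (ENSMUSG00000030223, mm10 chr6:137252319-137463233, plus strand) encodes GLEPP1, a receptor tyrosine phosphatase of the apical foot process membrane. The Flcn controls had 35.2, 36.8, 38.2, 28.5 and 27 CPM and the KO 21.7, 31.9, 27.2, 25.1 and 34 CPM. The groups overlapped, and the difference was -0.21 (SE 0.16, 95% interval -0.55 to 0.12, edgeR adjusted p = 0.71). Controls of the Flcn/Tfeb cross had 32.7, 19.8 and 18.1 CPM and the DKO 14.3, 22.7, 21.3 and 16.9 CPM. Here control 1 stood above the rest, and the difference of -0.33 (SE 0.28, edgeR adjusted p = 0.81) was -0.026 without it. The controls of the Flcn/Tfe3 cross had 8.62 to 27.5 CPM and the DKO 12.4 to 24.6 CPM, a difference of -0.019 (SE 0.18).

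Synpo (ENSMUSG00000043079), the actin-binding protein of the foot process, had nearly equal means in the knockout and control libraries of set A. They were 79.3 ± 7.78 CPM (SD, n = 5) in the Flcn KO and 83.9 ± 18.6 CPM (SD, n = 5) in its controls, and 84.2 ± 10.2 CPM (SD, n = 4) in the Flcn/Tfeb DKO and 85.2 ± 6.16 CPM (SD, n = 3) in its controls. The differences were -0.077 (SE 0.14, edgeR adjusted p = 0.91) and -0.025 (SE 0.16, edgeR adjusted p = 0.97). In the Flcn cross controls 4 and 5, at 65.1 and 66.3 CPM, lay below all 5 KO libraries whereas controls 2 and 3, at 105 and 99.8 CPM, lay above all of them and control 1, at 82.9 CPM, among them. Without controls 4 and 5 the difference was -0.29 (edgeR adjusted p = 0.59). In sets B and C the group means were lower, with libraries at 28.5 to 69.6 CPM in controls and 35.6 to 63.9 CPM in DKO. The difference in the Flcn/Tfe3 cross was 0.0049 (SE 0.15, 95% interval -0.30 to 0.31).

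Wt1 (ENSMUSG00000016458, mm10 chr2:105126529-105173616, plus strand) encodes the zinc finger factor that podocytes keep throughout life. It was steady in the Flcn cross, at 61.4 to 88.4 CPM in controls and 61.5 to 67.7 CPM in the KO, and the difference was -0.13 (SE 0.12, edgeR adjusted p = 0.75). In the Flcn/Tfeb cross the controls had 104, 83.5 and 47.7 CPM and the DKO 79.4, 81.6, 94.8 and 99.1 CPM, so that the DKO lay within the range of the controls. The difference was 0.18 (SE 0.24, edgeR adjusted p = 0.85), and -0.081 without control 3. In set B of the Flcn/Tfe3 cross the controls had 85.7, 86 and 86.7 CPM and the DKO 77.8, 71.6, 66.2, 66.1, 56.4 and 66.4 CPM. All 6 DKO libraries were below all 3 controls, as 1.26% of all genes tested were in that set. The difference of -0.35 (SE 0.12, 95% interval -0.61 to -0.09, unadjusted p = 0.012) did not pass (edgeR adjusted p = 0.75). In set B the test called 8 of 13191 genes (0.0606%), none of them a member. In set C the controls had 95.8, 73.7, 85, 92.8 and 69 CPM and the DKO 107, 99.3, 90.9 and 83.2 CPM, with a difference of the other sign, 0.17 (SE 0.14). The change in set C less that in set B was 0.56 (SE 0.18, 95% interval 0.19 to 0.93, edgeR adjusted p = 0.086), and its adjusted p was 0.043 with DESeq2 and also 0.043 in edgeR without control 6, fits that called 5.75 and 13.4% of all genes.

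Tcf21 (ENSMUSG00000045680, mm10 chr10:22817281-22820174, minus strand) encodes a basic helix-loop-helix factor of podocytes, mesangium and stroma. In set C of the Flcn/Tfe3 cross the controls had 116, 107, 69.5, 102 and 110 CPM and the DKO 57.2, 58.6, 62.3 and 54.9 CPM. Every DKO library was below every control, as for 2.46% of genes tested in set C, and control 6 was the control nearest to them. Tcf21 fell by 0.81 on the log2 scale (SE 0.15, 95% interval -1.13 to -0.49, edgeR adjusted p = 0.0084). In set C alone the test called 569 of 12169 genes (4.68%), 460 of them lower (3.78%), and 1 of the 8 podocyte genes. In set B the controls had 76.4, 72.7 and 81.4 CPM and the DKO 116, 113, 108, 74.4, 114 and 134 CPM. There, 5 of 6 DKO libraries were above all controls and DKO 4 lay among them, and the difference of 0.52 (SE 0.16, 95% interval 0.19 to 0.86) had an unadjusted p of 0.0045 and an edgeR adjusted p of 0.71. The change in set C less that in set B was -1.29 (SE 0.22, 95% interval -1.74 to -0.84, edgeR adjusted p = 0.043), in a test that called 162 of 12456 genes (1.3%). Both sets together gave -0.16 (SE 0.18, edgeR adjusted p = 0.9).

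The level of Tcf21 in set C went with other features of the libraries, and their part in the result was not tested. Control 6, with the lowest Tcf21 of the controls, was also the one with the smallest share of reads on no gene, 8.78% against 12.1 to 18.4% in the other 4, and the DKO had 7.92 to 10.5%. With that share as a covariate in set C the difference was -0.57 (SE 0.18, edgeR adjusted p = 0.5). Every DKO library had a smaller share than the 4 controls other than control 6, so share and genotype can hardly be told apart in set C. The fit with the covariate called 5 genes, all of them higher in the DKO. Of 6 genes of red blood cells, 4 fell in the DKO of set C, the globins Hba-a1 (-1.06), Hba-a2 (-1.06), Hbb-bs (-1.60) and Hbb-bt (-1.71), with edgeR adjusted p of 0.03, 0.025, 0.0069 and 0.0078. The summed level of these 6 genes was 1409 to 1850 CPM in the DKO and 2083 to 7580 CPM in the controls of set C, against 3231 to 6188 and 3605 to 5884 CPM in set B. Of the genes of the tubule segments in which Ksp-cre is active, Cldn10 (-0.69), Aqp2 (-0.61) and Fxyd4 (-0.58) also fell in set C and Umod (0.75) rose, with edgeR adjusted p of 0.023, 0.029, 0.047 and 0.0088. The fit with the covariate called no gene lower, so the calls on the 4 globins, Cldn10, Aqp2 and Fxyd4 were lost in it. The size of their differences in that fit is not given here. None of 8 stromal genes was called in set C, where 3 lay above 0 (median -0.10, range -0.39 to 0.40), beside 49.6% of all genes. Their summed level was 3161 to 3983 CPM in the DKO and 2629 to 3561 CPM in the controls. Most of that sum came from Col1a2, Col3a1 and Col1a1, with means of 1249, 849 and 707 CPM over all libraries. The call on Tcf21 in set C was lost without DKO 7, 8 or 10 in turn (edgeR adjusted p = 0.05, 0.053 and 0.053), while the difference stayed between -0.92 and -0.76 over all 9 libraries left out in turn. The call on the difference between the sets was lost in 12 of 18 such fits, with values between -1.41 and -1.22 and adjusted p up to 0.11. The antisense gene Gm10824 covers the 3′ end of Tcf21 and had 416 counts over all libraries, beside 9259 of Tcf21, and since the strand setting of the counting is not given in the sources used here, reads of the 2 may not be fully separated.

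**Figure D2:**
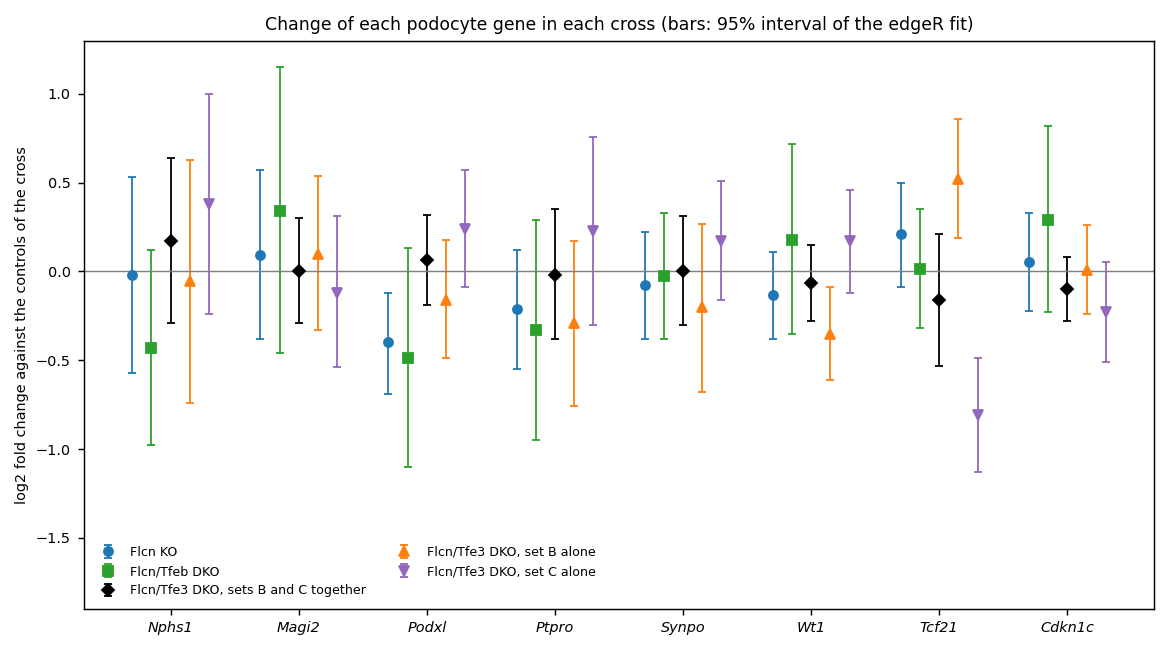
Log2 fold change of each podocyte gene against the controls of its cross, with bars for the 95% interval of the edgeR fit, for the Flcn KO, the Flcn/Tfeb DKO, and the Flcn/Tfe3 DKO in both sets together, in set B and in set C. Tcf21 is at 0.52 in set B and -0.81 in set C with intervals that do not touch, and the intervals of the other members cross 0 except those of Podxl in the Flcn KO and of Wt1 in set B.

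**Figure D3:**
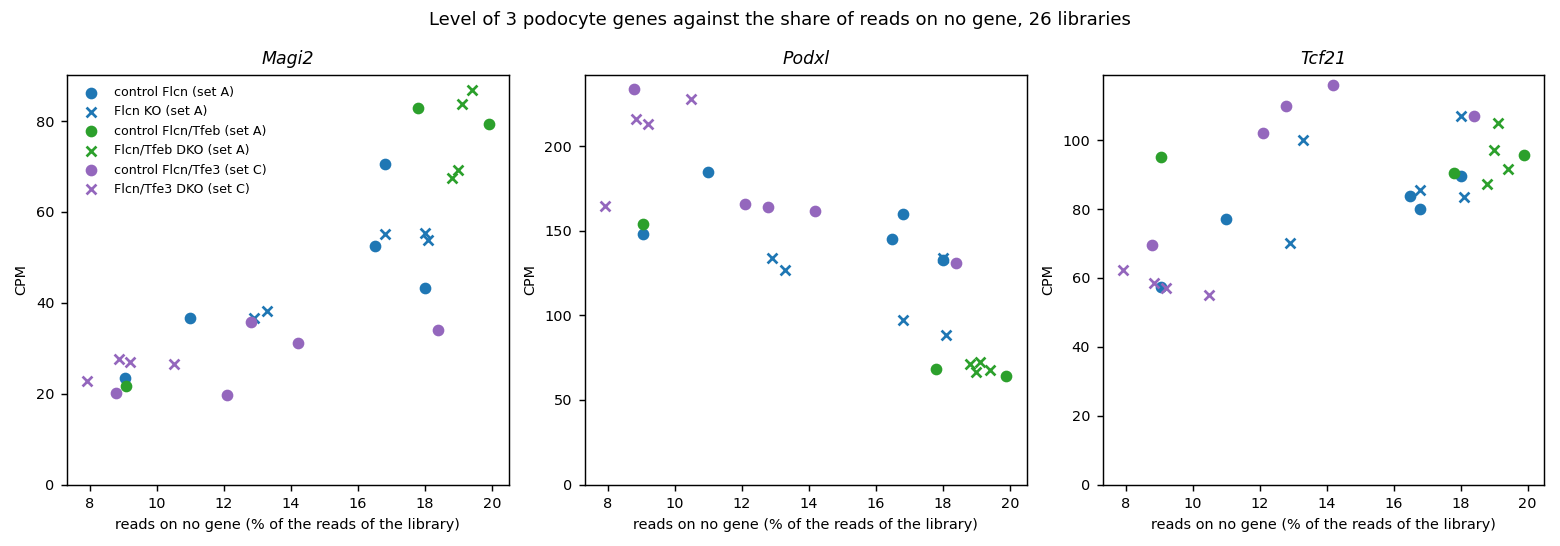
Level of Magi2, Podxl and Tcf21 (CPM) against the reads on no gene as a percentage of the reads tallied in the library, in the 26 libraries of sets A and C, with circles for controls, crosses for KO or DKO, and colours for the cross. Libraries with under 10% of reads on no gene had Magi2 at 20.1 to 27.6 CPM, and those above 17% had 34.1 to 86.9 CPM, while Podxl was at 148 to 234 CPM in the former and at 64.2 to 134 CPM in the latter.

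Tcf21 did not pass the test in the Flcn and Flcn/Tfeb crosses. The Flcn controls had 80, 89.5, 83.9, 77 and 57.5 CPM and the KO 107, 99.9, 85.4, 83.4 and 70.1 CPM. The groups overlapped, with a difference of 0.21 (SE 0.14, 95% interval -0.086 to 0.50, edgeR adjusted p = 0.68). The Flcn/Tfeb controls had 90.5, 95.7 and 95.1 CPM and the DKO 87.3, 97.1, 105 and 91.7 CPM, a difference of 0.013 (SE 0.15, 95% interval -0.32 to 0.35).

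Cdkn1c (ENSMUSG00000037664, mm10 chr7:143458339-143461050, minus strand), an imprinted gene that encodes the cyclin-dependent kinase inhibitor p57, was counted most often, 935 to 4273 times per library, and varied least, its highest group mean being 1.24 times its lowest. The Flcn controls had 922 to 1044 CPM and the KO 811 to 1149 CPM, with a difference of 0.051 (SE 0.13, edgeR adjusted p = 0.93). Among the Flcn/Tfeb libraries the controls had 546, 950 and 955 CPM and the DKO 1019, 1029, 1145 and 842 CPM. Control 1 was far below the others, and the difference was 0.29 (SE 0.24, edgeR adjusted p = 0.8) with it and 0.075 without it. In set C the DKO had 804 to 873 CPM and the controls 854 to 1081 CPM, and in set B 852 to 1085 and 887 to 995 CPM. The difference over both sets was -0.099 (SE 0.089, 95% interval -0.28 to 0.083).

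The levels are on a common scale but the sets are separate tables, so the order of groups across sets is a description. In that order a group mean differed from the next by more than the sum of both SDs in 4 places. These were Synpo between the Flcn KO (79.3 CPM) and the controls of set B (50.4 CPM), Magi2 between the DKO of set C (26 CPM) and the DKO of set B (17.1 CPM), Cdkn1c between the controls of set B (954 CPM) and the DKO of set C (828 CPM), and Tcf21 between the controls of set B (76.8 CPM) and the DKO of set C (58.3 CPM). All other neighbours in the order of a gene's group means lay within that spread.

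To ask whether the crosses differed from each other, the change in one was tested against the change in another as an interaction. With both sets of the Flcn/Tfe3 cross together, no member was called in any of the 3 tests, which called 2 of 13049 genes for the Flcn/Tfeb DKO less the Flcn KO (0.0153%), 0 of 13209 for the Flcn/Tfe3 DKO less the Flcn KO (0%) and 3 of 13637 for the Flcn/Tfe3 DKO less the Flcn/Tfeb DKO (0.022%). For the test with 0 calls, 978 genes (7.4%) had an unadjusted p under 0.05 in edgeR, among them 1 member. That was Podxl, whose change in the Flcn/Tfe3 DKO exceeded that in the Flcn KO by 0.47 (SE 0.20, 95% interval 0.066 to 0.88, edgeR adjusted p = 0.66). With set C alone, Tcf21 was called against the Flcn KO, at -1.0 (SE 0.21, edgeR adjusted p = 0.033), in a fit that called 459 of 12826 genes (3.58%). The effect in the Flcn/Tfe3 DKO less that in the Flcn/Tfeb DKO was -0.41 for Cdkn1c (SE 0.20, edgeR adjusted p = 0.41), and -0.19 without control 1 of the Flcn/Tfeb cross, and it was 0.59 for Nphs1 (SE 0.39, 95% interval -0.21 to 1.39, edgeR adjusted p = 0.53). Between the Flcn/Tfeb DKO and the Flcn KO the members differed by -0.40 (Nphs1) to 0.32 (Wt1), with edgeR adjusted p of 0.89 or more.

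The wider podocyte programme gave the same count of calls. Of 69 further genes in 5 lists, 0 were called in any cross at an adjusted p under 0.05 in edgeR. An unadjusted p under 0.05 was seen for 6 of 64 tested in the Flcn KO, 5 of 66 in the Flcn/Tfeb DKO and 2 of 65 in the Flcn/Tfe3 DKO, beside 9.07, 5.07 and 7.15% of all genes. In the Flcn KO, 10 of 13 genes of the slit diaphragm and its adaptors were tested and 2 lay above 0 (median -0.12), as did 1 of 9 transcription factors (median -0.17), 1 of 9 genes of the glomerular basement membrane (median -0.089), 6 of 20 of the cytoskeleton and adhesion (median -0.043) and 4 of 16 other genes enriched in podocytes (median -0.099), beside 48.5% of all genes. Lists of other cells also lay below 0 in the Flcn KO, the proximal tubule with 0 of 8 genes above 0 (median -0.22), the stroma with 2 of 8 (median -0.26) and the nephron progenitors with 2 of 7 (median -0.32), while others lay above it, the collecting duct with 6 of 8 (median 0.47), red blood cells with 6 of 6 (median 0.41), the thick ascending limb and distal tubule with 6 of 8 (median 0.097) and the endothelium with 5 of 9 (median 0.04). The collecting duct and red blood cell lists share 1 gene, Slc4a1 (0.68 in the Flcn KO). Without controls 4 and 5, 5 of 10 slit diaphragm genes (median 0.0088) and 11 of 20 cytoskeletal genes (median 0.015) lay above 0, beside 50.3% of all genes. The medians of the transcription factors (-0.055, 3 of 9 above 0), the basement membrane (-0.098, 2 of 9) and the other podocyte genes (-0.11, 4 of 16) stayed below 0 in that fit, and the median of the 8 podocyte genes was -0.26. Of the lists of other cells, the thick ascending limb and distal tubule turned to 2 of 8 above 0 (median -0.11). The medians of the stroma (-0.081), nephron progenitors (-0.21), proximal tubule (-0.33), endothelium (0.048), collecting duct (0.46) and red blood cells (0.33) kept their sign. The 6 genes of the Flcn KO were the adaptor Nck1 (0.34) and, in the other direction, the polarity protein gene Pard3 (-0.28), the actin crosslinker gene Actn4 (-0.32), the chloride channel gene Clic5 (-0.45), the LIM homeobox gene Lmx1b (-0.73) and the laminin gene Lamc1 (-0.37), at edgeR adjusted p of 0.32 to 0.52. In the Flcn/Tfeb DKO, 1 of 11 slit diaphragm genes (median -0.26), 1 of 9 basement membrane genes (median -0.18), 6 of 20 cytoskeletal genes (median -0.15), 4 of 9 transcription factors (median -0.048) and 9 of 17 other genes (median 0.041) lay above 0, beside 47.9% of all genes. Control 3 stood apart here too, with a summed level of the cytoskeletal list of 4084 CPM, against 2501 and 2315 CPM in controls 1 and 2 and 2487 to 2564 CPM in the DKO, and of the slit diaphragm list of 966 CPM, against 711 and 773 CPM in the other controls and 720 to 750 CPM in the DKO. Without that library 15 of 20 cytoskeletal genes (median 0.13), 4 of 10 slit diaphragm genes (median -0.023) and 1 of 9 basement membrane genes (median -0.051) lay above 0, beside 50.1% of all genes. The lowest p among them was that of Col4a5, a chain of basement membrane collagen, at -1.07 (SE 0.23, unadjusted p = 0.00071, edgeR adjusted p = 0.8). In the Flcn/Tfe3 DKO the medians were 0.096, 0.031, 0.058, 0.049 and -0.017 in the same order, with 8 of 10, 5 of 9, 17 of 20, 5 of 9 and 8 of 17 genes above 0, beside 51.9% of all genes. Within that cross the cytoskeletal list had 6 of 20 genes above 0 in set B, beside 50.3% of all genes, and 16 of 20 in set C, beside 49.6%, a contrast between sets that was not tested for the lists. The median of the other podocyte genes was below 0 in both sets (-0.22 and -0.013).

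For 4 of the lists the most abundant gene is described here, and none of these genes was called in any cross. Iqgap1, a scaffold that binds nephrin, had 345 ± 16.2 CPM (SD, n = 5) in the Flcn KO and 376 ± 42.7 CPM (SD, n = 5) in its controls (log2 difference -0.13, SE 0.11, edgeR adjusted p = 0.76). The integrin gene Itgb1 differed by -0.0067 in the Flcn KO, -0.20 in the Flcn/Tfeb DKO and -0.016 in the Flcn/Tfe3 DKO, with SEs of 0.11, 0.18 and 0.079. The heparan sulphate proteoglycan gene Agrn differed by -0.07, 0.14 and -0.065 in the same order, and Golim4 by -0.095, -0.18 and -0.093. Over these 4 genes and the 3 crosses the edgeR adjusted p lay between 0.76 and 0.99.

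**Figure D4:**
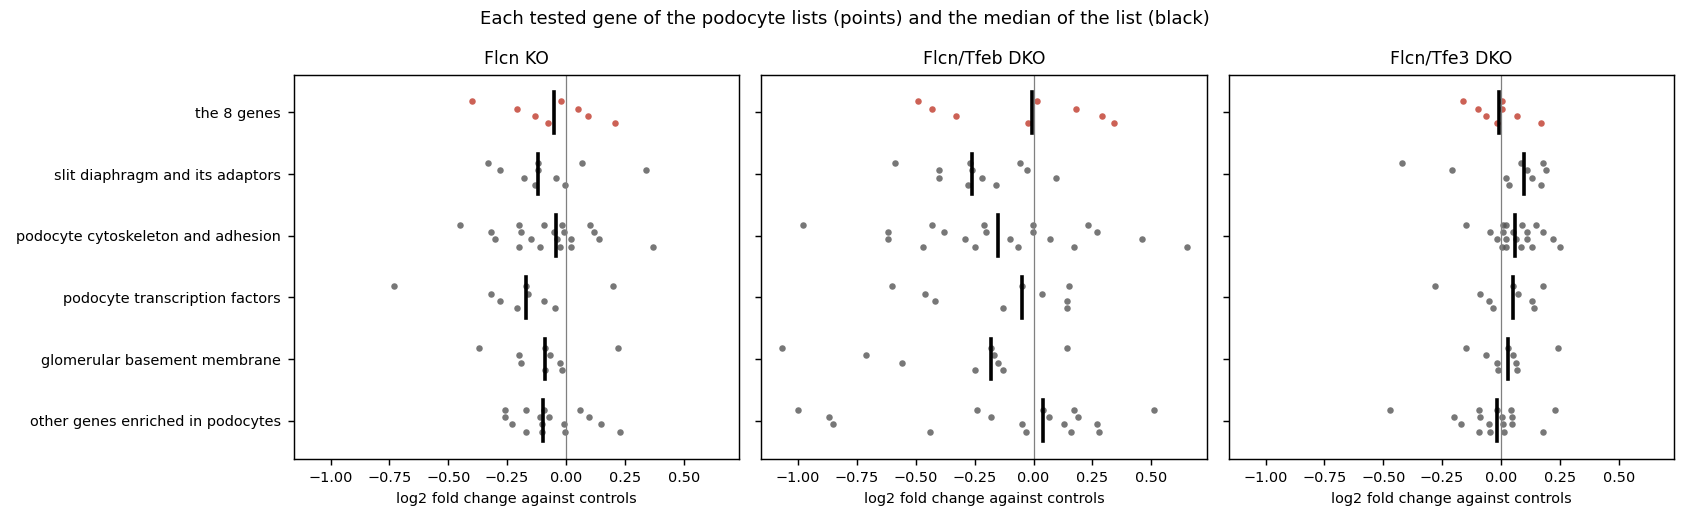
Log2 fold change against controls of every tested gene (points) of the 8 podocyte genes and of 5 further podocyte lists, in the Flcn KO, the Flcn/Tfeb DKO and the Flcn/Tfe3 DKO, with black lines for the median of each list. The members' medians are -0.049, -0.0056 and -0.0073, and the medians of the lists lie between -0.26 and 0.096.

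The 8 genes did not vary as a block from library to library. Taking each value as log2 CPM less the mean of its own group and set over all 35 libraries, the correlation (Pearson's r) between pairs of members ran from -0.54 for Podxl and Magi2 to 0.44 for Ptpro and Wt1. Against the mean of the other 7, r was 0.58 for Synpo, 0.21 for Nphs1, 0.15 for Magi2, 0.13 for Ptpro, -0.0098 for Wt1, -0.11 for Tcf21, -0.33 for Cdkn1c and -0.42 for Podxl. The libraries share their depth and the share of reads on no gene across genes, so these values describe the libraries and no p is given. Of 11699 other genes with a mean of at least 10 counts in each set, those most like the mean of the members were Vamp2 (r 0.75), Slc44a2 (0.71), Nisch (0.71), Lrch3 (0.70), Sned1 (0.69), Nfkb1 (0.69), 2700081O15Rik (0.69), Hoxb5 (0.69), Stard9 (0.68) and Nfat5 (0.68). None of the 10 is on a podocyte list, and the median r of the podocyte lists was -0.033 for the slit diaphragm, -0.16 for the cytoskeleton, -0.085 for transcription factors, 0.15 for the basement membrane and 0.20 for other podocyte genes. Over all 11699 genes the median was -0.00039. The list of the thick ascending limb and distal tubule had a median of 0.29, above that of every podocyte list.

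**Figure D5:**
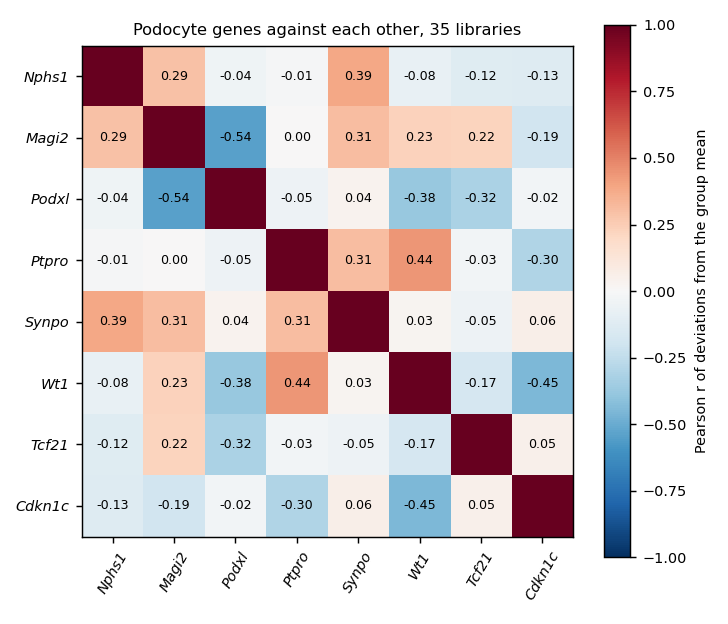
Pearson's r between every pair of the 8 podocyte genes over 35 libraries, each value taken as log2 CPM less the mean of its group and set, on a colour scale from -1 to 1. Podxl and Magi2 have the lowest r (-0.54) and Ptpro and Wt1 the highest (0.44).

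Of the genes of the tubule segments in which Ksp-cre is active, a few passed the test in the same libraries. In the Flcn KO these were 1 of 8 of the thick ascending limb and distal tubule and 1 of 8 of the collecting duct, in the Flcn/Tfeb DKO 0 of 8 and 0 of 8, and in the Flcn/Tfe3 DKO 1 of 7 and 0 of 8. Umod, which encodes the uromodulin of the thick ascending limb, rose by 1.0 on the log2 scale in the Flcn KO (SE 0.12, edgeR adjusted p = 0.0004) and by 0.71 in the Flcn/Tfe3 DKO (SE 0.098, edgeR adjusted p = 0.00022), and differed by -0.24 in the Flcn/Tfeb DKO (SE 0.26, edgeR adjusted p = 0.83). Atp6v1g3, a proton pump subunit of intercalated cells, rose by 1.31 in the Flcn KO (SE 0.18, edgeR adjusted p = 0.00086), and was not called in the Flcn/Tfe3 DKO (0.69, SE 0.17, edgeR adjusted p = 0.11). In set B alone Atp6v1g3 rose by 1.23 (SE 0.17, edgeR adjusted p = 0.013), and its change in set C less that in set B was -1.0 (SE 0.26, edgeR adjusted p = 0.055). The call in set B was lost without control 1 or without control 2, as neither fit called a gene. Aqp2, the water channel of principal cells, differed by -0.48 in the Flcn KO and by -0.40 in the Flcn/Tfe3 DKO and did not pass (edgeR adjusted p = 0.2 and 0.21). It was called in set C alone as given above, but not with the share of reads on no gene as a covariate. Among the other glomerular cells, 0 of 9 tested genes of the endothelium and 0 of 10 of the mesangium and pericytes were called in any cross by edgeR at an adjusted p under 0.05. At an unadjusted p under 0.05 there were 0, 1 and 0 endothelial and 4, 0 and 3 mesangial genes in the 3 crosses, taken in the order Flcn, Flcn/Tfeb, Flcn/Tfe3, beside 9.07, 5.07 and 7.15% of all genes.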

How the data were processed

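Total RNA of kidneys was made into QuantSeq 3′ libraries and sequenced single-end. The authors used bbduk for trimming, STAR with mm10 for alignment and HTSeq-count for gene counts (study's methods). Deposited values are raw counts without normalization. The submitters' processing notes name Trim Galore and STAR. The strand setting is not given in the sources used here. A deposited column of percent of multiply aligned reads (1 column) held only zeros or blanks and was not used. HTSeq tally lines stayed out of library totals and gave the percent of reads on no gene. Of the gene identifiers, 99.6% are in GENCODE M21. Over 63 pairs of libraries of a group and set, a chi-square test of the counts gave 2.85 to 42.6 for each degree of freedom, so none was treated as a duplicate.

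Each cross was fitted in edgeR 4.0.16 (R 4.3.3) with filterByExpr, TMM factors and the two-sided quasi-likelihood test, with the set as a term for the Flcn/Tfe3 cross, and Benjamini-Hochberg adjustment over all genes tested (called at adjusted p under 0.05). Fold changes are on the log2 scale, SE is the fold change over the root of F, and intervals are 95%. CPM are on TMM-scaled totals of all 35 libraries, with a prior of 2 for log2. DESeq2 1.42.0, other factors and filters, a replicate block and libraries left out in turn were alternatives. Same-numbered libraries did not deviate together (r -0.316 to 0.31 over 16 pairs). In the Flcn/Tfe3 cross, pairs 4, 5 and 6 joined a control of set C to a DKO of set B and could not show a pairing. For pairs 7 and 8 the submitters' descriptions number the control and the DKO differently, so these need not be pairs. The fits were also run on simulated counts, and the outcome is not reported here. Tables were handled in Python 3.11.15 with pandas 2.3.3, numpy 2.4.6 and matplotlib 3.10.9. Intervals and limits cover the spread between libraries or counting error only.

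The members and lists were chosen with earlier results of these data known. All 8 members are named in each comparison, with, from the other lists, genes called in a comparison, the gene of highest mean CPM, and the 10 genes most like the members' mean. The genes with an unadjusted p under 0.05 in the podocyte lists, and the values within set C of Podxl without control 6, were named after their values were seen. Some further podocyte genes are not reported here.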

Additional observations from a re-analysis of the deposited data

Results flagged for a closer look

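The change of Tcf21 in the Flcn/Tfe3 DKO differed between the 2 tables of that cross, being -1.29 on the log2 scale in set C less set B (edgeR interaction, Benjamini-Hochberg adjusted p = 0.043, range over the alternatives 0.00013 to 0.11). All 4 DKO libraries of set C and 5 of 6 of set B lay on opposite sides of their own controls.

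In 4 further cases every knockout library lay above the mean of its controls in one cross and below it in another. Magi2 was 15.5 CPM higher in the Flcn/Tfeb DKO and differed by -2.16 CPM in set C of the Flcn/Tfe3 cross. Wt1 was 10.3 CPM higher in the Flcn/Tfeb DKO and differed by -5.92 CPM in the Flcn KO and by -18.7 CPM in set B. Cdkn1c was 192 CPM higher in the Flcn/Tfeb DKO and differed by -131 CPM in set C. Among all genes tested in both, every knockout library was above the control mean in the Flcn/Tfeb cross and below it in set C for 8.14%, in the Flcn cross for 1.4% and in set B for 1.44%. The Flcn/Tfeb side of all of these rests on 3 controls, of which control 3 had the low Magi2 and Wt1 and control 1 the low Cdkn1c. For Wt1 the difference between the Flcn/Tfeb DKO and the Flcn KO was tested and gave 0.32 (SE 0.25, edgeR adjusted p = 0.89). The differences between the Flcn/Tfeb DKO and the DKO of set B or set C alone were also tested, and for these genes the edgeR adjusted p was 0.55 for Magi2 in set C, 0.69 for Wt1 in set B and 0.24 for Cdkn1c in set C. Of 48 combinations of member, group and set with 4 to 10 libraries, 0 held a library past Dixon's critical value. Groups of 3 libraries, the Flcn/Tfeb controls among them, were not included, so this count does not bear on those controls.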

How the results depend on the processing

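No member passed the threshold of 0.05 under any alternative of the 3 crosses except Tcf21 in set C alone (1 of 488 values, which do not include the libraries left out within set C, where Podxl passed without control 6), and 66 of these values had another sign than the reported one, 7 of them with either value further from 0 than its SE. These 7 and those of the cross interactions were Magi2 in the Flcn KO, -0.23 without controls 4 and 5; Podxl in the Flcn/Tfeb DKO, 0.083 with the share of reads on no gene as a covariate and -0.70 to 0.064 with libraries left out in turn; and in the Flcn/Tfe3 DKO Podxl (-0.16), Cdkn1c (0.0079) and Tcf21 (0.52) in set B alone and Wt1 (0.17) in set C alone. Set B alone also turned Wt1 (-0.22) and Tcf21 (0.31) against the Flcn KO and Tcf21 (0.49) against the Flcn/Tfeb DKO. Leaving out libraries turned Podxl between the Flcn/Tfeb DKO and the Flcn KO (-0.31 to 0.47), and Magi2 (-0.65 to 0.084) and Wt1 (-0.53 to 0.015) between the Flcn/Tfe3 and Flcn/Tfeb DKO, each by control Flcn/Tfeb 3. Other factors or filters turned no such value, and the cause of the others was not tested.

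Counts of all genes called moved more. The Flcn KO had 62, and 113 with DESeq2, 95 with no filter, 100 at an adjusted p under 0.1, 153 with the covariate and 37 to 58 with libraries left out. The Flcn/Tfeb DKO had 0, 1 in a fit of all of set A and 0 to 1 with libraries left out. The Flcn/Tfe3 DKO had 48, and 96 with DESeq2, 8 in set B, 569 in set C, 5 in set C with the covariate and 30 to 53 with libraries left out. The replicate block gave 48, 0 and 2 calls in the 3 crosses and called no member. In the Flcn/Tfe3 cross that block joined libraries of different sets, so it does not bear on pairing there. Between the Flcn/Tfe3 DKO and the Flcn KO there were 0 calls, 459 in set C alone, Tcf21 among them (adjusted p = 0.033), and 0 to 0 with libraries left out, and against the Flcn/Tfeb DKO 3, with 0 in set B, 1 in set C and 1 to 82 with libraries left out (82 without control Flcn/Tfeb 2). The Flcn/Tfeb DKO against the Flcn KO gave 0 to 3. Set B alone gave 8, with 25 under DESeq2, 14 with no filter and 0 to 11 with libraries left out, and set C alone 569, with 865, 937 and 26 to 2404. The difference between the sets gave 162, with 716, 398 and 0 to 1690. The highest counts, 2404 and 1690, came without control 6. The covariate, the fits without controls 4 and 5, the lists without single libraries and the test between the sets were chosen after seeing the data. In the Flcn/Tfeb cross, with 3 controls, the intervals of Podxl (-1.10 to 0.13) and Magi2 (-0.46 to 1.15) reached past a 2-fold change.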
